A study of Homo sapiens with 6 samples.

Results

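Polycomb complexes are the chromatin machines that keep developmental genes silent, and their subunits were followed here as human embryonic stem cells (hESC) became mesoderm. The list held 38 genes, taken by complex membership: the enzymes, core subunits and accessory proteins of Polycomb repressive complex 2 (PRC2) and Polycomb repressive complex 1 (PRC1), and the deubiquitinase that opposes PRC1. A gene counted as measured where at least 1 probe set, the group of short probes that reports a transcript on the array, was annotated to that gene and to no other. That held for 34 of the 38, with 104 probe sets among the 54675 on the array and 34 of 19775 genes. RNF2, BMI1, CBX8 and BAP1 are not analysed here.

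The 6 arrays carried RNA of H9, a single established hESC line, so that no other genetic background enters. Of these, 3 were of undifferentiated H9 cells. The other 3 were of mesodermal progenitors, made from H9 in Stemline II medium with the growth factors activin A, VEGF, FGF2 and BMP4 and sorted on day 3.5 as cells negative for CD326 (EPCAM) and positive for CD56 (NCAM1). Unsorted cells of that day were not among the samples, so the sort and the differentiation cannot be told apart. Whether arrays of the same group stem from independent cultures is not stated, so every p-value here refers to the spread among these samples and that spread may be technical.

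PRC2 places methyl groups on lysine residues of histone H3 tails (the mark H3K27me3), and PRC1 attaches ubiquitin to histone H2A. In embryonic stem cells both sit on CpG-rich promoters of silent lineage genes, many of which also carry activating marks. The subunits come as families of paralogs that exclude each other within a complex, so a cell type is partly described by which paralogs it expresses. Canonical PRC1 contains a CBX protein, which reads H3K27me3, and a PHC protein. Variant PRC1 contains RYBP or YAF2 in place of a CBX protein and reaches chromatin by other routes, among them the CpG-binding demethylase KDM2B.

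The labels were checked against markers. All 7 measured pluripotency markers were lower in the progenitors, from LIN28A (log2 change -0.34) to PRDM14 (-4.85), and all 8 mesoderm markers were higher, from TBXT (3.13) to APLNR (7.61). Of 6 neuroectoderm markers 1 was higher (LHX2) and 1 lower (MAP2), and their mean level ran from 4.95 to 5.53 on the progenitor arrays and reached 5.08 at most in hESC. PAX6 and SOX1, which define that lineage, did not pass the test. Of 7 endothelial markers 6 were higher in the progenitors, and their mean level ran from 8.33 to 9.88 there against 6.54 to 6.57 in hESC. The highest value was that of progenitor array 1, on which CDH5 (VE-cadherin) stood at 10.01 against 6.90 and 7.12. Of 5 endoderm markers 2 were higher, by 2.36 and 0.50, and 1 was lower (AFP, -0.58), with a mean level between 6.13 and 6.26 on the progenitor arrays and between 5.68 and 5.95 on the hESC arrays. PECAM1, another endothelial marker, was at a mean of 6.05 in the progenitors and 6.06 in hESC. Between progenitor arrays 2 and 3 only 7 genes were more than 2-fold apart, against 208 and 180 between each of them and array 1. No batch is named in the labels. The 3′ minus 5′ signal of the actin control, a sign of RNA integrity, lay between 0.41 and 0.51 on the progenitor arrays and between 0.57 and 1.11 on the hESC arrays, on the log2 scale (exact permutation test, two-sided, p = 0.1, the smallest p possible with 3 against 3). The same signal of the GAPDH control overlapped, between -0.16 and 0.01 on the progenitor arrays and -0.18 and -0.13 on the hESC arrays (exact permutation p = 0.5). The spiked-in hybridization controls lay between 9.805 and 9.961 on the progenitor arrays and between 10.2 and 10.42 on the hESC arrays (exact permutation p = 0.1). The part of these array differences in the results below was not tested.

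Polycomb genes moved in both directions, with the largest rise and the largest fall in the same family, those of PHC2 and PHC1. Of 34 measured members, 13 were higher and 13 lower in the progenitors and 8 did not pass the test (limma, Benjamini-Hochberg adjusted p under 0.05 over all genes). Over all genes 47.9% passed, 26.7% higher and 21.2% lower, so a large share of any list would be called in this comparison. At least 2-fold changes that passed were found for 9 members, 6 higher and 3 lower, against 16.6% of all genes. The 6 were PHC2, YAF2, BCORL1, ASXL3, SCML1 and ASXL1, and the 3 were PHC1, JARID2 and PCGF5, of which PCGF5 had other probe sets that rose. The median log2 change of the members was -0.01, beside 0.04 for all genes, and the median size of the change without regard to sign was 0.57 for members and 0.32 for all genes. Values over all genes include dim ones. With the dimmest 30% of genes left out, 64.49% of all genes passed, beside 27 of 34 members. With the dimmest 50% left out, 69.36% passed, beside 24 of 30 members. The other shares and medians given here for all genes were not limited to brighter genes. Of the 26 called members 13 were higher, where 55.78% of called genes were. The share of called members that were higher was 78.26% (all genes 86.41%) when signals were scaled on the spiked-in hybridization controls, which moved the median of all genes to 0.48, and 44.0% (37.28%) with median centring. In 29 members the arrays of both groups did not overlap, which was so for 57.3% of all genes. A log2 change is the progenitor mean minus the hESC mean of log2(intensity + 16), n = 3 per group, and understates the change of dim genes. Since RNA was measured in bulk, fewer cells with a transcript and less transcript per cell cannot be told apart.

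**Figure D1:**
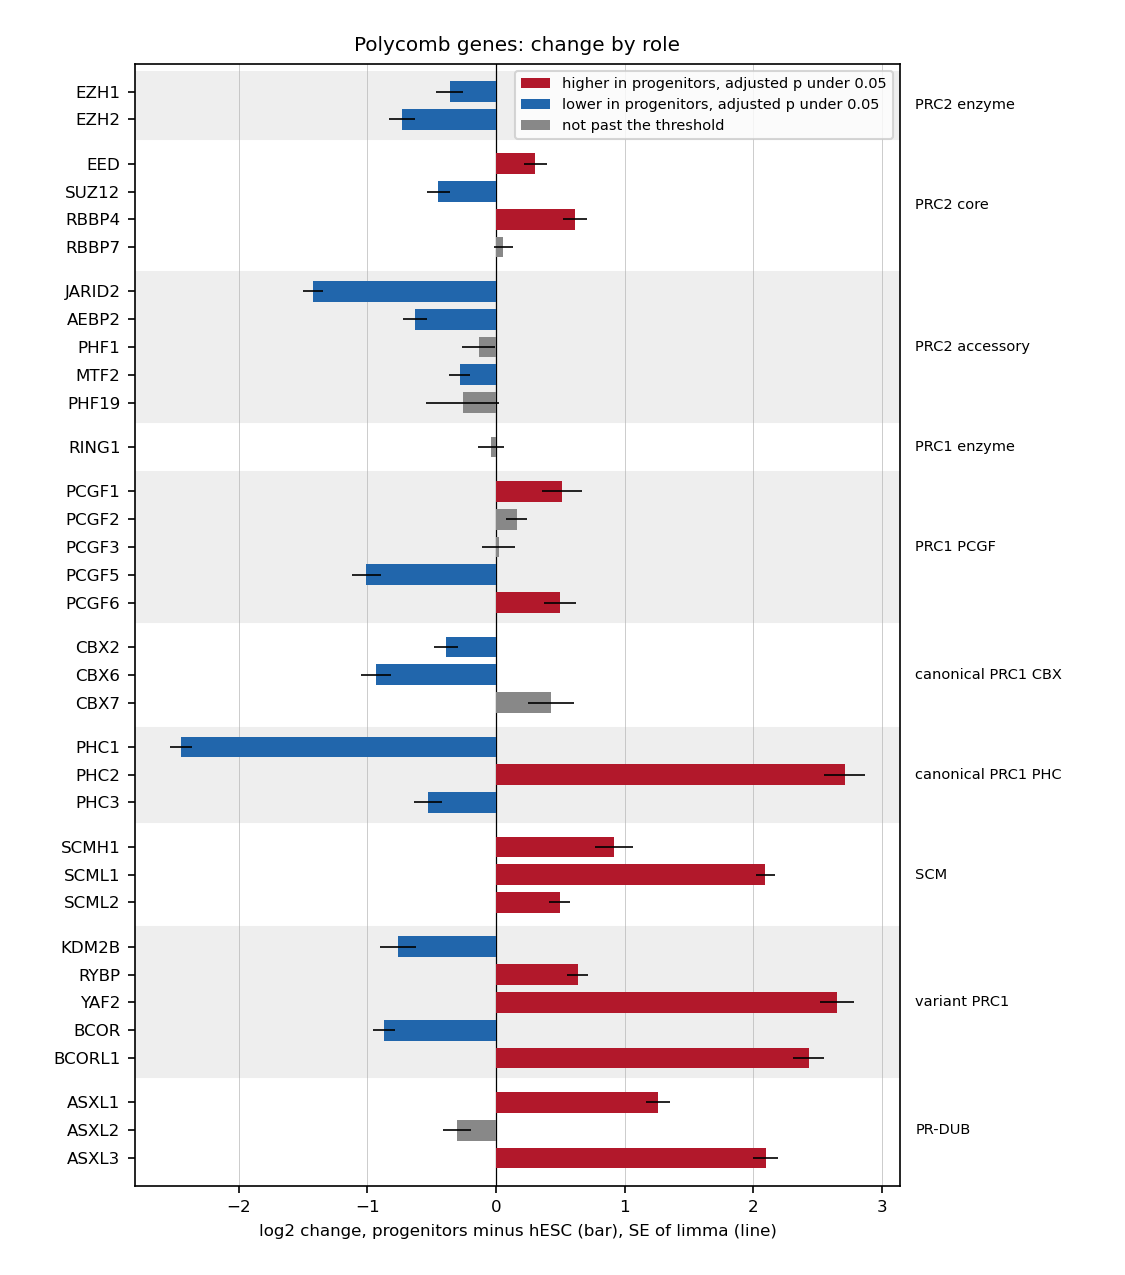
Log2 change of each of the 34 measured Polycomb genes (horizontal axis, progenitors minus hESC, bar) with the standard error of the fit (line), grouped by role and coloured by direction where the adjusted p was under 0.05. PHC1 (-2.45) and PHC2 (2.71) have the longest bars in each direction, and JARID2 has the longest bar among the PRC2 subunits.

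The PRC2 enzymes both fell. EZH2, the main H3K27 methyltransferase of dividing cells, stood at 9.87, 9.93 and 9.79 on hESC arrays 1 to 3 and at 8.97, 9.22 and 9.21 on progenitor arrays 1 to 3. Every progenitor array lay below every hESC array, and the change was -0.73 (SE 0.10, adjusted p = 0.000725 with limma). EZH1, the paralog that prevails in resting cells, was at 8.35, 8.34 and 8.20 in hESC and at 7.76, 7.99 and 8.05 in the progenitors. Its fall of 0.36 (SE 0.10) passed narrowly, with an adjusted p of 0.0246 in limma, and did not pass without progenitor array 1 (-0.27), progenitor array 2 (-0.39), hESC array 1 (-0.33) or hESC array 2 (-0.34). Under the scaling on hybridization controls, EZH2 did not pass (-0.29) and EZH1 turned to 0.16 without passing. Averaging the probe sets of EZH1 also ended its call (-0.21).

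Core subunits went different ways. SUZ12, the scaffold on which PRC2 is assembled, fell by 0.45 (SE 0.09), from 10.78, 10.92 and 10.79 in hESC to 10.28, 10.45 and 10.42 in the progenitors, and was at -0.05 without passing under the scaling on hybridization controls. A dimmer probe set of SUZ12 fell by 2.42, and the mean of its probe sets gave -0.93. EED, the subunit that binds H3K27me3 and stimulates the enzyme, had a change of 0.30 (SE 0.09, adjusted p = 0.0242 with limma). Its call was lost without progenitor array 2 (0.28), progenitor array 3 (0.29), hESC array 1 (0.30) or hESC array 2 (0.26), without normalization between arrays (0.23) and with median centring (0.08). A second, dimmer probe set of EED fell by 0.60. The histone-binding proteins RBBP4 and RBBP7, which also serve in other chromatin complexes, were bright on every array. RBBP7 lay between 11.94 and 12.04 on all 6 arrays and did not pass (0.05, SE 0.07). RBBP4 rose by 0.61 (SE 0.09) on its brightest probe set, from 10.90, 10.81 and 11.07 to 11.55, 11.55 and 11.52. RBBP4 also had a probe set that fell by 2.34, from 9.96, 10.22 and 9.48 to 7.28, 7.73 and 7.64, so its direction depends on which probe set is read.

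Among the accessory subunits that steer PRC2 to its sites, JARID2 changed most. JARID2 lacks demethylase activity and recruits PRC2 in embryonic stem cells. It was at 12.12, 12.12 and 12.04 in hESC and at 10.74, 10.64 and 10.64 in the progenitors, a change of -1.42 (SE 0.08, adjusted p = 8.73e-06 with limma). A second bright probe set of JARID2 fell by 1.72, and the dimmest did not pass (-0.04). AEBP2, which shares a PRC2 subtype with JARID2, was at 10.40, 10.38 and 10.17 in hESC and at 9.72, 9.68 and 9.65 in the progenitors. All progenitor arrays lay lower, by a mean of -0.63 (SE 0.09), which did not pass under the scaling on hybridization controls (-0.22) and was -0.28 when its probe sets were averaged.

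The Polycomb-like proteins PHF1, MTF2 and PHF19 define the other PRC2 subtype. MTF2, the member best known from embryonic stem cells, fell by 0.28 (SE 0.08), from 10.78, 10.78 and 10.69 to 10.53, 10.47 and 10.41. Of its 5 probe sets 4 fell and none rose, and its direction turned, to 0.12, under the scaling on hybridization controls. The call of MTF2 was also lost without progenitor array 2 (-0.28), progenitor array 3 (-0.25) or hESC array 1 (-0.27). PHF1 did not pass, at -0.14 (SE 0.13). For PHF19 the levels were 8.24, 7.18 and 7.33 in the progenitors and 8.02, 7.53 and 7.98 in hESC. The groups overlapped through that array, and PHF19 did not pass (-0.26, SE 0.28). Without progenitor array 1 it passed at -0.59, whereas another of its probe sets rose by 0.44.

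**Figure D2:**
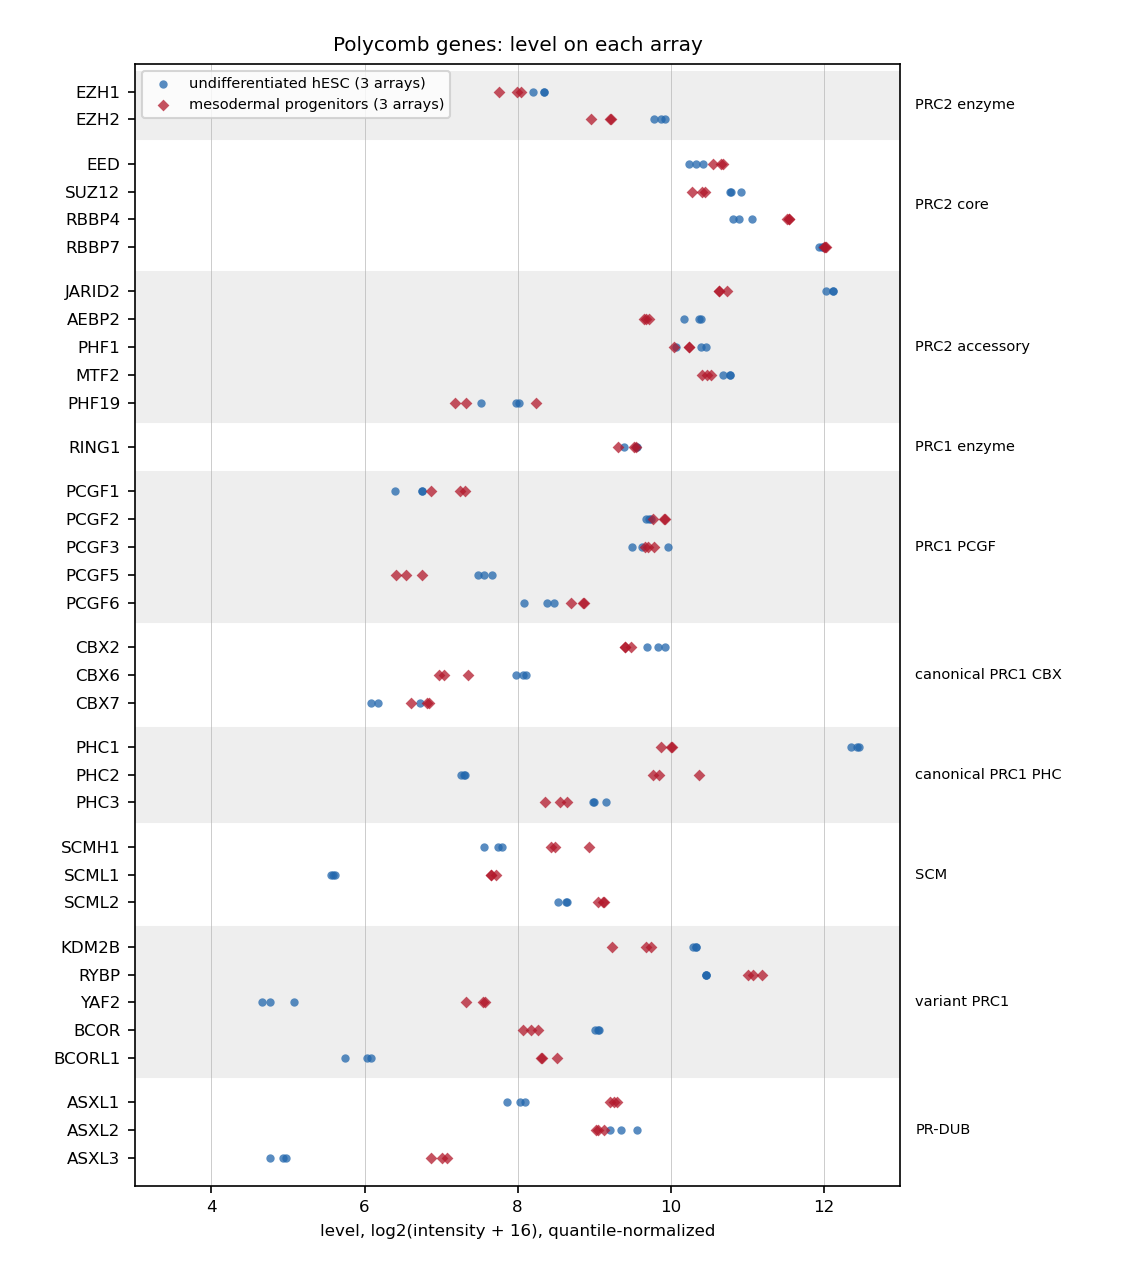
Level of each measured Polycomb gene on each array (horizontal axis, quantile-normalized log2(intensity + 16) of the gene's brightest probe set, circles for 3 hESC arrays and diamonds for 3 progenitor arrays). Levels can be compared within a row only, and the groups are farthest apart for PHC1, PHC2, YAF2, BCORL1, SCML1 and ASXL3.

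RING1, the ubiquitin ligase of PRC1 measured here, did not pass. It was at 9.55, 9.56 and 9.39 in hESC and at 9.31, 9.55 and 9.52 in the progenitors. The groups overlapped, with a change of -0.04 (SE 0.10). Under the scaling on hybridization controls it passed at 0.40, below the 0.48 by which the median of all genes stood there.

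PCGF proteins pair with the ligase and decide which PRC1 is built. PCGF2 (MEL18), of canonical PRC1, lay at 9.72, 9.67 and 9.74 in hESC and at 9.78, 9.93 and 9.91 in the progenitors. The arrays did not overlap, yet the difference of 0.16 (SE 0.08) did not pass. PCGF1, which works with KDM2B and BCOR, was at 6.75, 6.40 and 6.75 in hESC and at 7.31, 6.86 and 7.25 in the progenitors. Both of its probe sets rose, the brighter one by 0.51 (SE 0.15, adjusted p = 0.0288 with limma). That call was lost without progenitor array 1 (0.43), progenitor array 3 (0.45), hESC array 1 (0.57) or hESC array 2 (0.39), and with median centring (0.34). PCGF6, which acts with E2F6 and MGA in germline gene silencing, rose by 0.50 (SE 0.12), from 8.08, 8.38 and 8.48 to 8.70, 8.87 and 8.86. PCGF3 did not pass on its brightest probe set (0.02, SE 0.13), and its direction turned without normalization between arrays (-0.03) and with median centring (-0.17). Of its other probe sets, 2 fell and 1 rose by 0.91.

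PCGF5 gave opposite answers on its 5 probe sets. Its brightest probe set fell by 1.01 (SE 0.11), from 7.48, 7.67 and 7.56 in hESC to 6.41, 6.54 and 6.76. Another rose by 1.47, from 5.44, 5.44 and 5.82 to 7.01, 7.12 and 6.99. The other that rose did so by 1.51, from 4.86, 4.78 and 5.14 to 6.50, 6.37 and 6.43. In these 3 the groups did not overlap, and the remaining probe sets, both dimmer, did not pass (0.34 and -0.23). No single direction can be given for the gene. Where in the transcripts these probe sets lie is not analysed here.

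The CBX readers of canonical PRC1 fell or did not pass. CBX6 fell by 0.93 (SE 0.12), from 8.07, 7.98 and 8.11 in hESC to 7.36, 6.97 and 7.03, and a second probe set fell by 0.35. CBX2, which compacts chromatin, was at 9.92, 9.69 and 9.84 in hESC and at 9.40, 9.40 and 9.48 in the progenitors. Its brightest probe set fell by 0.39 (SE 0.09), was at 0.04 without passing under the scaling on hybridization controls, and stood beside a dimmer probe set that rose by 0.52. CBX7, the reader prominent in undifferentiated stem cells of the mouse, did not fall. It was at 6.18, 6.08 and 6.72 in hESC and at 6.60, 6.82 and 6.85 in the progenitors, so that hESC array 3 alone overlapped. The difference of 0.43 (SE 0.18, adjusted p = 0.0841 with limma) passed without hESC array 3, at 0.63.

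The polyhomeotic proteins, which link PRC1 units to each other through their SAM domains, included the member with the largest rise and the one with the largest fall, and had a median change of -0.53. PHC1 was bright in hESC, with deposited intensities of 5587, 5723 and 5200 against 918, 996 and 991 in the progenitors. On the log2 scale it was at 12.44, 12.46 and 12.36 and then at 9.87, 10.02 and 10.01. The fall of 2.45 (SE 0.08, adjusted p = 8.83e-07 with limma) was 5.47-fold on this scale, and the other PHC1 probe set fell by 2.28. PHC2 went the opposite way, from intensities of 141, 139 and 140 in hESC to 1289, 838 and 879. Its level rose from 7.30, 7.26 and 7.32 to 10.38, 9.78 and 9.85, by 2.71 (SE 0.16, adjusted p = 1.04e-05 with limma), or 6.54-fold. Progenitor array 1 was the highest for PHC2, and the rise was 2.52 without it. Of the dimmer probe sets of PHC2, 1 rose by 0.67 and 1 did not pass (0.65), so the mean of the 3 gave 1.34. PHC3 fell by 0.53 (SE 0.11), from 9.16, 8.995 and 8.993 to 8.35, 8.65 and 8.56, failed the test when its 5 probe sets were averaged (-0.09), and was at -0.04 without passing under the scaling on hybridization controls. Its dimmer probe sets included 1 that rose by 0.53.

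The starts of PHC1 and PHC2 differ in base composition, and both are shown because these genes moved farthest in opposite directions. The 250 bases before each start come from RefSeq (GRCh38.p14), 5′ to 3′ on the gene's strand, with every CG in capitals. Whether these cells use the annotated start was not measured. The PHC1 stretch is chr12:8913593-8913842 on the plus strand, holds 10 CG and is 37.6% G or C. The PHC2 stretch is chr1:33431096-33431345 on the minus strand, holds 21 CG and is 66.8% G or C.
PHC1: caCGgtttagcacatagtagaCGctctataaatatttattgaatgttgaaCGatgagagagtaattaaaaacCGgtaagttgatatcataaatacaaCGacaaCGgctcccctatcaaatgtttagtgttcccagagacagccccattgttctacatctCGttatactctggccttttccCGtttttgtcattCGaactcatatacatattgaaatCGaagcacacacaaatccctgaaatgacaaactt
PHC2: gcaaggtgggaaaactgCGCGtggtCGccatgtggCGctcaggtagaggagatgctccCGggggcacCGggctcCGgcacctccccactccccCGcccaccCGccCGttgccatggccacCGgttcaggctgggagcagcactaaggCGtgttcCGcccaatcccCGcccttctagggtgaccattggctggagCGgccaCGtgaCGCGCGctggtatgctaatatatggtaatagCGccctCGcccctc
Over windows of 300 bases (250 before and 50 after the start), 33 of the 34 members had a sequence, with a median of 30 CG. The median was 14 over 27305 genes, which were not limited to those measured on the array. Members that rose and members that fell had similar medians, 30 CG for 13 genes and 28 CG for 12. PHC1 had 10 CG in that window and PHC2 had 30, within a range over the members from 2 for PCGF2 to 55 for PCGF5.

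The homologs of the fly protein Sex comb on midleg, which associate with PRC1, all rose. SCML1 rose by 2.09 (SE 0.08, adjusted p = 1.07e-06 with limma), from 5.61, 5.56 and 5.59 in hESC to 7.72, 7.66 and 7.66. Its arrays differed by less than 0.1 within each group, and a second probe set rose by 1.67. SCMH1 rose by 0.92 (SE 0.15), from 7.74, 7.79 and 7.56 to 8.93, 8.43 and 8.49, and by 0.76 without progenitor array 1, its highest. SCML2 was at 8.65, 8.64 and 8.53 in hESC and at 9.11, 9.13 and 9.06 in the progenitors, a rise of 0.49 (SE 0.08).

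In variant PRC1, subunits of opposite directions stood side by side. YAF2, the paralog of RYBP, had deposited intensities of 18.6, 10.1 and 11.4 in hESC and of 148.5, 175.9 and 171.9 in the progenitors. Its level rose from 5.08, 4.66 and 4.77 to 7.33, 7.57 and 7.55, by 2.65 (SE 0.13, adjusted p = 4.58e-06 with limma). Because the hESC values were near the pseudocount, the rise was 3.63 at a pseudocount of 1 and 1.57 at 64. The second YAF2 probe set rose by 1.27. RYBP, bright in both groups, rose less, by 0.63 (SE 0.08), from 10.46 on each hESC array to 11.20, 11.07 and 11.02, and all 4 of its probe sets rose.

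BCOR and BCORL1, paralogous scaffolds of the PCGF1 complex, moved apart. BCOR was at 9.02, 9.05 and 9.07 in hESC and at 8.27, 8.07 and 8.17 in the progenitors, a change of -0.87 (SE 0.09), and all 4 of its probe sets fell. BCORL1 rose by 2.43 (SE 0.12, adjusted p = 4.33e-06 with limma), from 6.03, 6.09 and 5.74 to 8.52, 8.32 and 8.31. The other BCORL1 probe sets were dimmer and less clear, at 0.31, 0.03 and -0.38, and the mean over its 4 probe sets gave 0.60. KDM2B, which brings that complex to CpG islands, was at 10.33, 10.34 and 10.29 in hESC and at 9.24, 9.67 and 9.75 in the progenitors. Its fall of 0.76 (SE 0.14) was largest on progenitor array 1, measured -0.61 without that array, and did not pass under the scaling on hybridization controls (-0.35).

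The ASXL proteins are partners of the deubiquitinase BAP1, which removes the ubiquitin that PRC1 adds. ASXL3 rose by 2.09 (SE 0.10, adjusted p = 3.61e-06 with limma), from 4.97, 4.94 and 4.76 in hESC to 7.02, 7.07 and 6.86. Deposited intensities of ASXL3 were 16.14, 16.04 and 11.27 in hESC and 114.8, 117.9 and 98.6 in the progenitors, and 3 of its 4 probe sets rose. As the hESC values lay near the pseudocount of 16, the rise was 2.94 at a pseudocount of 1 and 1.17 at 64. ASXL1 rose by 1.26 (SE 0.09), from 7.86, 8.04 and 8.10 to 9.30, 9.26 and 9.21, with 4 of 6 probe sets higher and none lower, and by 0.73 on their mean. ASXL2 did not pass on its brightest probe set, at -0.30 (SE 0.11, adjusted p = 0.0523 with limma), although the arrays did not overlap. It passed in several other settings, among them without hESC array 3 (-0.39) and with median centring (-0.47). Among its other probe sets 2 rose, by 0.56 and 0.35, and 1 fell by 2.10.

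Unequal change of paralogs was also read within each array, as the log2 level of one gene minus that of the other. A shift common to all genes of an array cancels in such a difference. Of 11 pairs listed, 9 could be compared. An exact permutation test over arrays (two-sided) cannot go below p = 0.1 with 3 against 3, or 0.113 after adjustment over the 9 pairs, so no pair can pass and the values are a description. PHC1 minus PHC2 was 5.14, 5.20 and 5.05 in hESC and -0.50, 0.25 and 0.16 in the progenitors, a difference of -5.16. BCOR minus BCORL1 moved by -3.30, from 2.99, 2.96 and 3.32 to -0.25, -0.24 and -0.13. RYBP minus YAF2 moved by -2.02, from 5.38, 5.81 and 5.70 to 3.87, 3.50 and 3.47. These 3 pairs had the widest shifts. In PHC1 with PHC2 and in BCOR with BCORL1 the members were called in opposite directions, whereas RYBP and YAF2 both rose. YAF2 was dim in hESC, and the shift of RYBP minus YAF2 was -2.99 at a pseudocount of 1 and -0.95 at 64. On the mean of each gene's probe sets BCOR minus BCORL1 moved by -1.80. ASXL1 minus ASXL3 moved by -0.83, a value that depended on the pseudocount, being -1.63 at 1 and -0.05 at 64. CBX2 minus CBX7 moved by -0.82, and by -0.37 on the mean of the probe sets. EZH1 minus EZH2 moved by only 0.37, and PHF19 minus MTF2 overlapped between groups (0.02, exact permutation p = 1). The pairs RBBP4 with RBBP7 (0.56) and PCGF5 with PCGF3 (-1.03) turned in sign on the mean of each gene's probe sets, to -0.48 and 0.43.

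**Figure D3:**
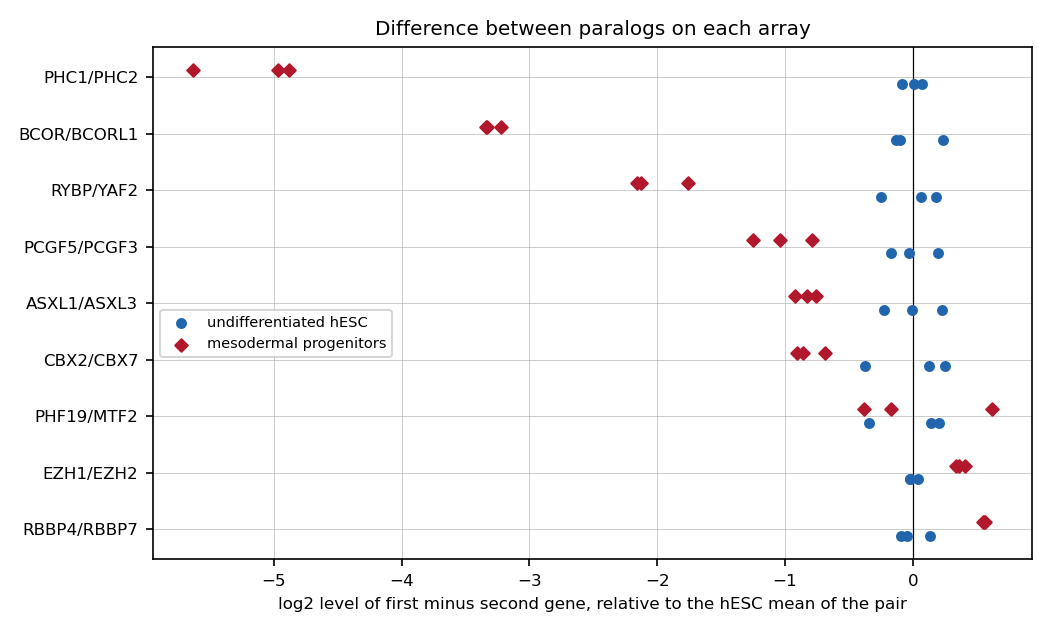
Log2 level of the first minus the second gene of 9 paralog pairs on each array (horizontal axis, set to 0 at the hESC mean of the pair, circles for hESC and diamonds for progenitors). The progenitor arrays of PHC1/PHC2, BCOR/BCORL1 and RYBP/YAF2 lie farthest to the left, while those of PHF19/MTF2 fall on both sides of the hESC arrays.

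Since the rule chose probe sets, each of the 104 was also tested singly, with adjustment over all probe sets. Of these, 35 were higher, 32 lower and 37 did not pass, where 40.2% of all probe sets on the array passed. Of 27 members with several probe sets, 7 had all of them called in 1 direction, namely PHC1, BCOR and CBX6 lower and RYBP, YAF2, SCML1 and PCGF1 higher. In 8 members, probe sets were called in both directions: EED, RBBP4, PCGF3, PCGF5, CBX2, PHC3, BCORL1 and ASXL2. EZH2, RBBP7, PCGF6, CBX7, SCMH1, SCML2 and KDM2B had a single probe set, so no second reading exists for them here.

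**Figure D4:**
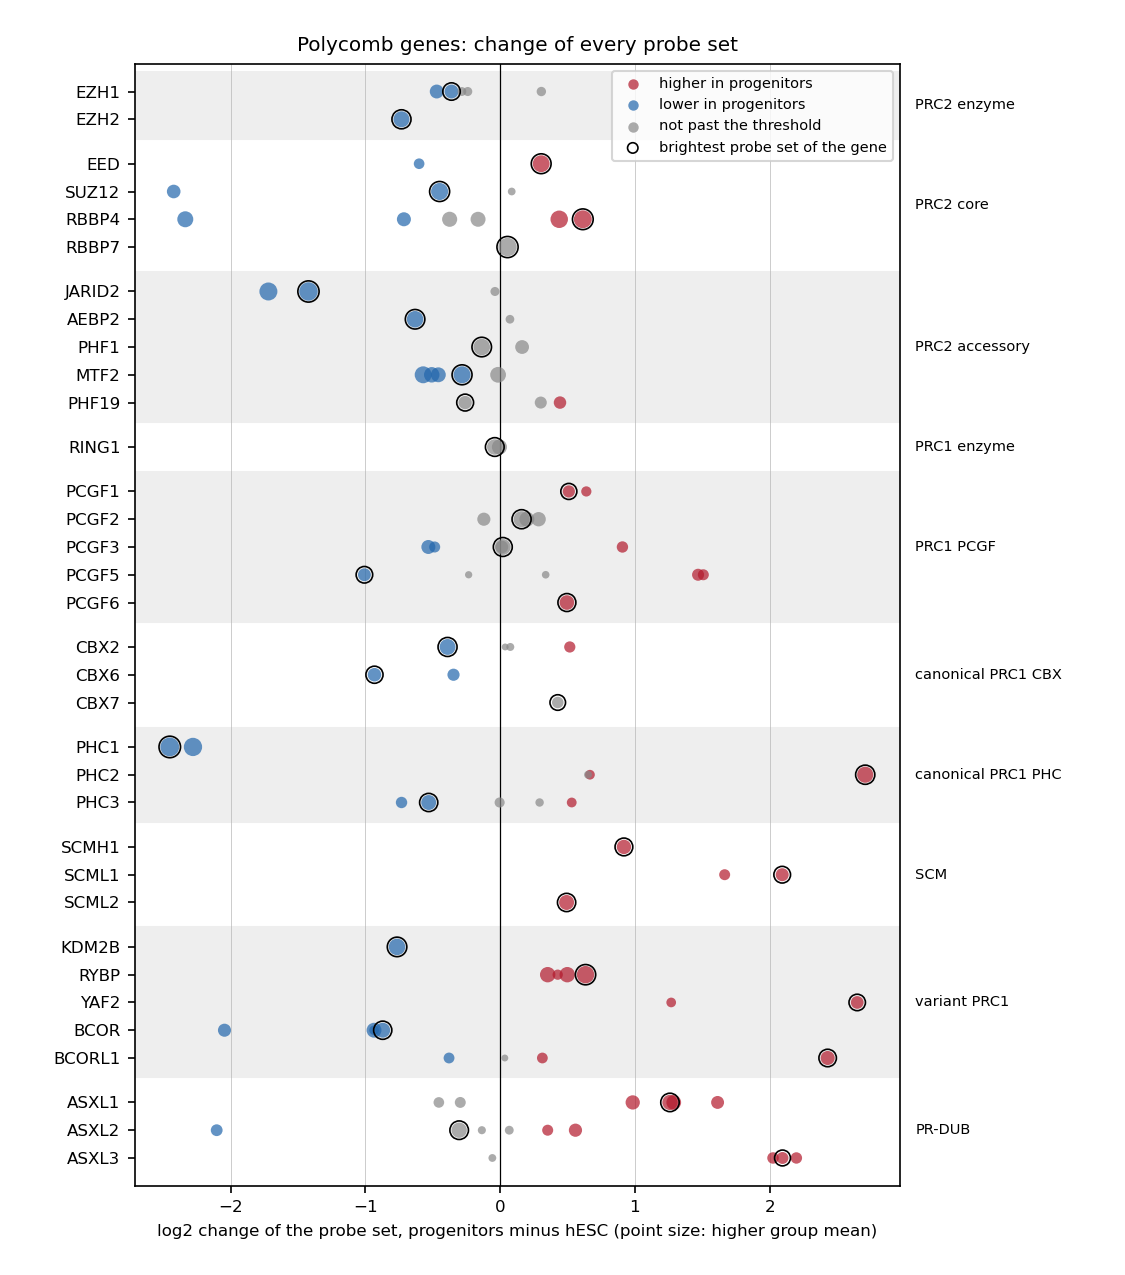
Log2 change of all 104 probe sets of the measured Polycomb genes (horizontal axis, progenitors minus hESC), coloured by call, with larger points for brighter probe sets and a ring around the brightest of each gene. The points of PHC1, BCOR and RYBP stay on one side of 0, whereas those of RBBP4 and PCGF5 lie on both sides.

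Other genes of the pathway came from lists of partners, of opposing enzymes and of genes, nearly all for transcription factors, that Polycomb is known to occupy in hESC. Of 31 measured partners 11 rose, 9 fell and 11 did not pass (median -0.01, beside 0.04 for all genes). Over all genes 26.7% rose and 21.2% fell. MBD5, a partner of the BAP1 complex, rose by 1.33, FOXK1, which tethers that complex, by 1.29 and E2F6, the DNA-binding factor of the PCGF6 complex, by 0.96. AUTS2, a partner of PCGF3 and PCGF5, fell by 1.57, SFMBT1 by 0.92 and OGT by 0.79. Of 19 opponents 5 rose, 9 fell and 5 did not pass (median -0.22). KDM6B, which demethylates H3K27me3, was at 6.03, 5.89 and 5.95 in hESC and at 8.51, 8.36 and 8.46 in the progenitors, a rise of 2.48 (SE 0.09, adjusted p = 8.75e-07 with limma). Its relative KDM6A, chosen after its value was seen, fell by 0.43 with an adjusted p of 0.0479 in limma. The next largest rises among the opponents were those of NCOA6 (2.02) and ASH2L (1.51). MYSM1, a deubiquitinase of H2A, fell by 1.85, the H3K4 methyltransferase KMT2A by 1.17 and KMT2D by 0.66.

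Of 42 measured genes on the Polycomb target list, 21 rose, 3 fell and 18 did not pass (median 0.52). Over all genes 26.7% rose and 21.2% fell. The list shares HAND1 and EOMES with the mesoderm markers above, and LHX2, PAX6 and NEUROG2 with the neuroectoderm markers. Its counts are therefore not independent of the check of the labels, and a release of these genes from Polycomb was not tested. The largest increases were those of HAND1 (7.54), MSX1 (6.99) and GATA6 (6.63), factors of early mesoderm. The 3 that fell were EVX1 (-1.96), NEUROG1 (-0.45) and TBX5 (-0.43). EVX1 and NEUROG1 were read from probe sets ending in _x_at. TBX5 was read from a probe set ending in _s_at and was dim, at a mean of 5.25 in the progenitors and 5.68 in hESC. Other probe sets of the listed genes were not examined here. CDKN2A, a classical Polycomb target that halts the cell cycle, was chosen after its value was seen, did not pass (0.14) and was at a mean of 5.28 in the progenitors and 5.14 in hESC. Proliferation genes, with which EZH2 is known to rise and fall, went in both directions. Of 16, 6 rose, led by CDK1 (0.90), 5 fell, led by the replication helicase subunit MCM5 (-0.99), and 5 did not pass (median 0.12). The 5 that fell were MCM2, MCM3, MCM5, MCM6 and PCNA. The 6 that rose were AURKA, BUB1, CDK1, MKI67, TOP2A and TYMS. Those beyond CDK1 and MCM5 were named after their values were seen. A part of proliferation in the change of EZH2 was not tested.

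**Figure D5:**
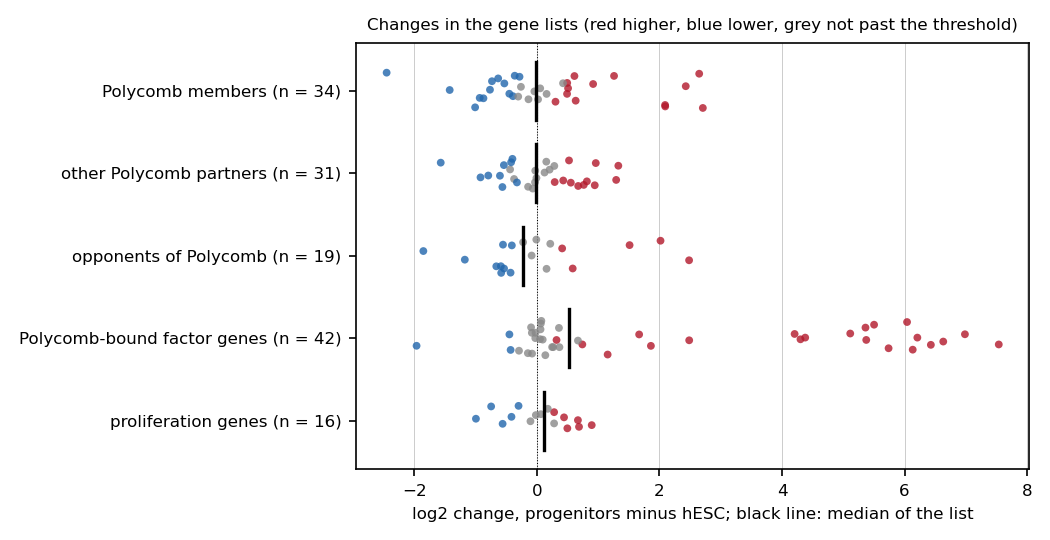
Log2 change of every measured gene in 5 lists (horizontal axis, progenitors minus hESC, 1 point per gene, black line at the list's median, red higher, blue lower and grey not past the threshold). The Polycomb members and their partners are spread around 0, and many genes of the Polycomb target list lie above 4.

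The members' promoters were searched on both strands for the letters TTTCCCGC and TTTGGCGC, forms of the site of E2F factors, which drive S phase genes and are known to act on EZH2. Either form stood in 3 of 33 member windows of 300 bases and in 2.31% of 27305 windows. The member windows had a median of 30 CG against 14 over all windows. The shares were not compared at like CG content. The 3 genes were SUZ12, EZH2 and MTF2, PRC2 subunits that were lower in the progenitors, though none passed under the scaling on hybridization controls. A link between the letters and these changes was not tested. The matches are shown with those letters in capitals (RefSeq, GRCh38.p14, 30 bases on the gene's strand).
SUZ12, chr17:31936807-31936836, plus strand: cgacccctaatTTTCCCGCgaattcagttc
EZH2, chr7:148884272-148884301, minus strand: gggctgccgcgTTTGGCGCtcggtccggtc
MTF2, chr1:93079277-93079306, plus strand, letters on the opposite strand: accggcagtccGCGGGAAAccaaaatggcg
The match lay 189 bases before the start in SUZ12 and just after it in the others, from base 2 in EZH2 and base 6 in MTF2. The octamer ATGCAAAT, bound by OCT factors, was in none of the 33 windows and in 1.80% of all, and CTTTGAT, bound by TCF and LEF factors, in none and in 2.64%. The palindromic site of NRF1 was in PHC3 alone and in 1.36% of all windows, and AAGATGGC, bound by YY1, in PCGF1 and PHC3 and in 3.03%. These matches describe letters only, and binding was not measured.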

How the data were processed

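The deposited table gives an intensity on a linear scale for each of 54675 probe sets on 6 one-colour arrays. The labels' protocols name biotinylated cRNA made with an amplification kit. No source used here gives the background correction, summarization or scaling. Of all values 2.15% equalled 1 and 19 lay below it. Symbols were updated through gene identifiers. Each gene was read from its brightest probe set among those annotated to it alone, and 62 array controls were left out.

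Intensities were converted to log2(intensity + 16). Array medians spanned 0.1495 on that scale, and the arrays were quantile-normalized. Genes, and separately probe sets, were fitted by limma 3.58.1, lmFit then eBayes (R 4.3.3), two-sided, Benjamini-Hochberg over all genes or all probe sets, and called where the adjusted p was under 0.05. The script was checked on simulated data. Figures used matplotlib 3.10.9 under Python 3.11.15. With 3 arrays per group, their number limits the precision.

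All 34 measured members entered the test with no filter on low values, and all are named. Of each other list, the 3 largest rises and falls and the markers could be named. Members, lists and tests were chosen with earlier results of these data known. Alternatives covered scaling, pseudocount, filters, choice of probe set, variance model, replicate block, each array left out and progenitor arrays 2 and 3 averaged.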

Additional observations from a re-analysis of the deposited data

How the results depend on the processing

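Over 20 alternatives, 13 of the 26 called members kept their call and direction wherever they were measured: PHC2, YAF2, BCORL1, ASXL1, ASXL3, SCML1, SCMH1, SCML2, RYBP and PCGF6 higher, PHC1, BCOR and CBX6 lower. Scaling on the hybridization controls was among these alternatives and raised the changes of all genes, so it could end falls more readily than rises. PCGF6, SCMH1 and SCML2 have a single probe set, so the choice of probe set could not alter their values. The like share over all genes was not computed. Leaving out 1 array gave 22 to 28 called members, 11 to 14 in each direction, where 39.99% to 47.22% of all genes passed. It gave 56 to 68 called probe sets and a median change of the members of -0.088 to 0.017. Called members numbered 21 at an adjusted p under 0.01, where 35.5% of all genes passed, and 30 with array weights, where 63.52% did. Same-numbered arrays did not deviate together (r = -0.02, 0.03 and -0.04 for numbers 1 to 3). With the replicate number as a block 23 members, 44.91% of all genes and 59 probe sets were called, EED, EZH1 and MTF2 no longer.

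Scaling on the hybridization controls put the median of all genes at 0.48 and that of the members at 0.43. It called 70.46% of all genes and 23 of 34 members, 18 higher and 5 lower, with 59 probe sets higher and 13 lower. It turned ASXL2 (0.15), CBX2 (0.042), EZH1 (0.16), MTF2 (0.12), PHF1 (0.27), PHF19 (0.25) and RING1 (0.40). Median centring put all genes at -0.15 and the members at -0.20. It called 51.89% of all genes, with 11 members higher, 14 lower and 21 probe sets higher, and turned PCGF2 (-0.041), PCGF3 (-0.17) and RBBP7 (-0.14). Without normalization the members' median was -0.052 and PCGF3 was at -0.027.

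Without probe sets ending in _x_at or _s_at, 26 members remained measured and 17 were called, 8 of them lower, where 44.84% of all genes passed. EED (-0.60), PCGF5 (1.47), PHF19 (0.44) and RBBP4 (-0.16) turned, as did the pairs RBBP4/RBBP7 (-0.22) and PCGF5/PCGF3 (1.45). JARID2, left with its dim probe set, did not pass (-0.04). The mean of the probe sets (members' median 0.034) turned CBX2 (0.060), EED (-0.15), PCGF3 (-0.016), PCGF5 (0.41), PHF1 (0.013), PHF19 (0.16) and RBBP4 (-0.42), and the pairs RBBP4/RBBP7 (-0.48) and PCGF5/PCGF3 (0.43). The probe set with the largest variance (median 0.22) turned CBX2 (0.52), EED (-0.60), PCGF5 (1.51), PHF1 (0.16), PHF19 (0.30) and RBBP4 (-2.34), and the pairs RBBP4/RBBP7 (-2.39), PCGF5/PCGF3 (0.60) and CBX2/CBX7 (0.089). With the dimmest 50% of genes left out, 30 members remained, with a median of -0.20. Leaving out 1 array, PCGF3 ranged from -0.082 to 0.15, RING1 from -0.094 to 0.036 and PHF19/MTF2 from -0.28 to 0.23. The cause of these turns was not tested in any setting.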

Other observations

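Of the probe sets that were not the brightest of their gene, 5 fell by more than 2 on the log2 scale, those of SUZ12 (-2.42), RBBP4 (-2.34), PHC1 (-2.28), ASXL2 (-2.10) and BCOR (-2.04). The 4 other than PHC1, whose brightest probe set fell alike (-2.45), are described here and were chosen after their values were seen. The brightest probe sets of SUZ12, RBBP4, ASXL2 and BCOR changed by -0.45, 0.61, -0.30 and -0.87. In hESC these 4 probe sets shared an order over the arrays, with array 2 highest and array 3 lowest, as did that of PHC1 over a narrower range (11.87, 12.03 and 11.82). SUZ12 stood at 8.16, 8.57 and 7.54 on hESC arrays 1 to 3, RBBP4 at 9.96, 10.22 and 9.48, ASXL2 at 6.87, 7.46 and 6.37, and BCOR at 7.85, 8.11 and 7.18. The brightest probe set of SUZ12 differed far less between those arrays, at 10.78, 10.92 and 10.79. The median deposited intensities of hESC arrays 1 to 3 had the order of the 4 probe sets too (35.06, 36.11 and 33.11). So did the hybridization controls after normalization (10.38, 10.42 and 10.2). How many of all probe sets share that order was not computed, so it is not shown to be particular to these 4. In the progenitors the 4 lay at 5.31 to 5.91 for SUZ12, 7.28 to 7.73 for RBBP4, 4.46 to 4.98 for ASXL2 and 5.58 to 5.81 for BCOR. Every hESC array lay above every progenitor array in each of the 4.

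Members whose progenitor arrays were least alike were PHF19, PHC2, KDM2B and SCMH1. Progenitor array 1 differed from the mean of the other progenitor arrays by 0.99, 0.57, -0.47 and 0.47 in these genes, and by more than 0.25 in 7 of 34 members. The endothelial markers other than PECAM1 (6.08, 5.93 and 6.13) were highest on the same array. So were the neuroectoderm markers LHX2 (7.21, 5.79 and 6.03), MAP2 (6.60, 4.93 and 4.92) and PAX6 (5.74, 4.97 and 4.84). NEUROG2, OTX1 and SOX1 were not. The part of any of these markers in the differences between progenitor arrays was not tested.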
